A study of Mus musculus with 2 samples.

Results

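The genes T, Eomes, Tbx3 and Tbx6 encode T-box transcription factors, and 3 of them mark the primitive streak and the mesoderm that leaves it. They were followed in single cells of mouse gastruloids. Each symbol matched 1 row of the gene list, so the 4 genes were 4 of 32285 measured. A gastruloid is an aggregate of embryonic stem cells that begins to form a body axis in culture. R1 mouse ES cells, wild type (WT) or carrying a double knockout of Sp5 and Sp8 (dko), were aggregated at about 300 cells in serum-free N2B27. Aggregates of both genotypes received 3 µM of CHIR, which blocks GSK3 and so turns on the Wnt pathway, for 12 hours from day 2 and were pooled and collected at day 2.5. The labels do not say how many clones the double knockout comes from. Each genotype has 1 library, so genotype, culture and library cannot be told apart and no difference has a replicate check.

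T-box factors bind a shared DNA element through the conserved domain that gives the family its name. T, also called Brachyury, is switched on by Wnt signalling throughout the primitive streak and is needed for posterior mesoderm and the notochord. Eomes acts under Nodal signalling in the epiblast and the anterior streak, where it is needed for definitive endoderm and for cells to leave the epiblast. Tbx6 acts later, in the paraxial mesoderm that forms somites. Tbx3 is known from naive pluripotent cells and extraembryonic endoderm. Sp5 and Sp8 are zinc-finger factors that bind GC boxes, are themselves switched on by Wnt signalling and act on its target genes.

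Barcodes with at least 2500 UMIs, at least 1000 genes and at most 10% mitochondrial UMIs were taken as cells. UMIs are random tags by which amplified copies of a transcript are counted once. The WT-labelled library held 8707 such cells with 97157331 UMIs and a median of 10571 UMIs per cell, and the dko-labelled library held 10587 cells with 97644169 UMIs and a median of 8637. They had 27 cell barcodes in common. Pou5f1, a pluripotency gene of stem cells and epiblast, stood at 656 and 679 CPM (UMIs of the gene per 1000000 UMIs) and was thus present in both, as were Nanog and the streak genes below. The targeted genes were both higher in the dko-labelled library: Sp5 was at 109 CPM in the WT-labelled library and 479 CPM in the other, and Sp8 at 20.8 and 40.1 CPM. Transcript counts do not show whether an allele is edited, and the reason for these levels was not tested. Directions below therefore compare 2 libraries by their labels and are not read as effects of losing the targeted genes. Brackets give 95% intervals, exact Poisson for levels, exact conditional for ratios and Clopper-Pearson for shares. They cover counting error only.

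Both T and Eomes were higher in the dko-labelled library, whereas Tbx3 and Tbx6 were rare in both and did not differ beyond counting error. T (ENSMUSG00000062327; chromosome 17, 8434423 to 8442496, plus strand, in the GENCODE M21 annotation of GRCm38) had 3768 UMIs or 38.8 CPM (37.6 to 40.0) in the WT-labelled library. The dko-labelled library held 4953 T UMIs, 50.7 CPM (49.3 to 52.2), which is 1.31-fold higher, or 0.39 (0.33 to 0.45) as a log2 ratio. Eomes (ENSMUSG00000032446; chromosome 9, 118478212 to 118486132, plus strand) had 8859 UMIs or 91.2 CPM (89.3 to 93.1) in the WT-labelled library and 18124 UMIs or 186 CPM (183 to 188) in the other. Its log2 ratio was 1.02 (0.99 to 1.06), a fold of 2.04. The intervals of the 2 libraries were apart for both genes. Eomes kept this direction in each subset of cells examined, whereas T had the opposite one in cells with a low UMI share from chromosome 6, described at the end.

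Tbx3 (ENSMUSG00000018604; chromosome 5, 119670669 to 119684724, plus strand) had 117 UMIs or 1.20 CPM (1.00 to 1.44) against 95 UMIs or 0.973 CPM (0.787 to 1.19). The log2 ratio of -0.31 had an interval from -0.71 to 0.10. Tbx6 (ENSMUSG00000030699; chromosome 7, 126781483 to 126785560, plus strand) had 22 UMIs or 0.226 CPM (0.142 to 0.343) against 23 UMIs or 0.236 CPM (0.149 to 0.353). Its log2 ratio of 0.06 had an interval from -0.85 to 0.97, so differences of nearly 2-fold either way were not detectable at this depth. All 4 genes are protein-coding. Levels of different genes were not divided by transcript length and are not ranked against each other.

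**Figure D1:**
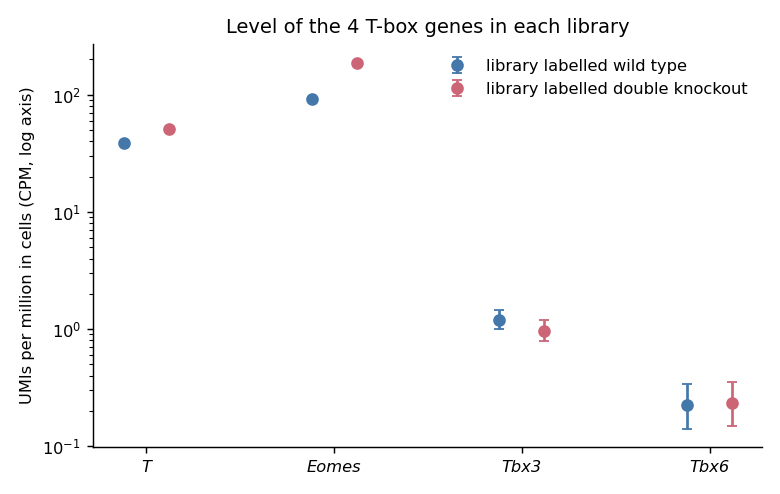
Level in CPM (log axis) of T, Eomes, Tbx3 and Tbx6 in the WT-labelled library (blue) and the dko-labelled library (red). Bars are exact Poisson 95% intervals, smaller than the points for T and Eomes. T goes from 38.8 to 50.7 CPM and Eomes from 91.2 to 186 CPM, while the intervals of Tbx3 and of Tbx6 overlap between libraries.

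These ratios can be set against all genes of the same comparison. Among 7607 genes with a mean level of at least 10 CPM, log2 ratios had a median of -0.02 and quartiles at -0.11 and 0.07. Only T and Eomes of the 4 genes reached that level. Both were at least 25% higher in the dko-labelled library, as were 1.42% of the 7607 genes, and 2.02% were lower by the same fold (at least 20% lower). At 1.5-fold Eomes alone was higher, against 0.289% of genes (0.237% lower). A higher ratio than that of Eomes was found for 2 genes, and a higher one than that of T for 70. The chromosomes that carry them did not shift in the same way, since the median log2 ratio was 0.01 over 359 genes of chromosome 17 and -0.04 over 422 genes of chromosome 9.

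An annotated gene lies on the opposite strand of Eomes (Gm33460) and of Tbx3 (Tbx3os1), and the use of strand in counting is not given in the sources used here. Gm33460 held 11 and 21 UMIs and Tbx3os1 held 6 and 2 in the WT-labelled and dko-labelled libraries. T and Tbx6 overlap no annotated gene.

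The sequence just upstream of the start is shown for 3 of the genes because GC boxes are the element Sp factors bind and TCF/LEF sites the element of the Wnt pathway that CHIR activates. The sequences are the 250 bases before the start given by RefSeq on GRCm38.p6, 5′ to 3′, in lower case with searched motifs in capitals. RefSeq gave entries for T (chr17:8434173-8434422, plus strand), Eomes (chr9:118477939-118478188, plus strand) and Tbx6 (chr7:126781233-126781482, plus strand), and 3 of the 4 genes were thus matched.
T: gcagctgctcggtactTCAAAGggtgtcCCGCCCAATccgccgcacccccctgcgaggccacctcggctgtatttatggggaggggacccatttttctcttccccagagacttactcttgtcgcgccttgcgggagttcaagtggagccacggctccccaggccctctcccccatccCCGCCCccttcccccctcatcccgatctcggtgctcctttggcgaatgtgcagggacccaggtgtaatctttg
Eomes: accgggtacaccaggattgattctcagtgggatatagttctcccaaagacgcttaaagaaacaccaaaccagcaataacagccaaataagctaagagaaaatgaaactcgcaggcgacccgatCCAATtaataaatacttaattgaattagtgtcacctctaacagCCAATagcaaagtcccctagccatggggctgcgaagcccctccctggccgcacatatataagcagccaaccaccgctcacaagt
Tbx6: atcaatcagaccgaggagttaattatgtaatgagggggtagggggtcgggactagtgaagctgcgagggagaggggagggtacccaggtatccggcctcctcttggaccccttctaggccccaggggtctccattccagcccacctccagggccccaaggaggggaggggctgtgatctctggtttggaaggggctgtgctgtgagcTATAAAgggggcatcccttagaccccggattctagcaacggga

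Motifs were searched on both strands: the GC box GGGCGG, the TCF/LEF core CTTTGA, the TATA core TATAAA, the CCAAT box CCAAT and the T-box core GGTGTGA. The T window held the GC box on the minus strand at positions -222 and -73, the first of which overlaps a CCAAT box at -218, and the TCF/LEF core on the minus strand at -234. Positions count from the first transcribed base. The Eomes window held the CCAAT box at -127 and -84, and the Tbx6 window the TATA core at -43. Of 32851 windows of this length, 32.7% held the GC box, 13.8% the TCF/LEF core, 12.4% the TATA core, 33.8% the CCAAT box and 3.33% the T-box core, so a match is common for most of them. These are matches of letters and not measured binding sites. The T window was 62.8% G or C, the Eomes window 46.4% and the Tbx6 window 59.6%, against a median of 52.4% over all windows.

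Levels were then divided into the share of cells with a UMI and the number of UMIs in those cells. Because depth differed between libraries, cells with at least 4000 UMIs (8449 and 10229 cells, leaving out 258 and 358) were each thinned to 4000 UMIs. T was found in 995 of the thinned cells of the WT-labelled library, 11.8% (11.1 to 12.5), and in 1656 cells, 16.2% (15.5 to 16.9), of the other. Unthinned shares over all cells were 26.0% and 29.3%. Eomes was found in 2120 cells, 25.1% (24.2 to 26.0), and in 4460 cells, 43.6% (42.6 to 44.6), with unthinned shares of 43.4% and 61.8%.

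T-positive cells held 1.24 thinned T UMIs on average in each library (ratio 0.999), while their share differed (ratio 1.38). That mean lies near its floor of 1 and says little about the level in a positive cell. For Eomes the share of positive cells was 1.74 times as large and the UMIs per positive cell 1.20 times as many, going from 1.39 to 1.67. Cells with at least 2 thinned T UMIs made up 2.09% (1.80 to 2.42) and 3.04% (2.72 to 3.39), and these intervals did not overlap. Those with at least 3 made up 0.509% (0.369 to 0.685) and 0.596% (0.456 to 0.765), where the intervals overlapped. Cells with at least 3 Eomes UMIs made up 1.96% (1.68 to 2.28) and 7.28% (6.79 to 7.80). The cell richest in T held 21 T UMIs before thinning and was in the WT-labelled library.

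**Figure D2:**
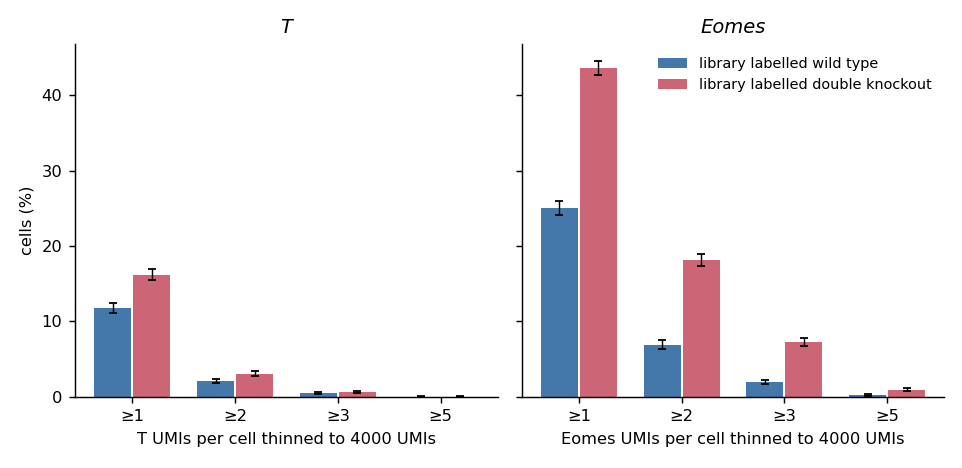
Share of cells (%) with at least 1, 2, 3 or 5 UMIs of T (left) and Eomes (right) after thinning each cell to 4000 UMIs, in the WT-labelled library (blue) and the dko-labelled library (red), with Clopper-Pearson 95% intervals. The libraries stand at 11.8% and 16.2% for T and at 25.1% and 43.6% for Eomes at 1 UMI, and for Eomes they stay apart at 3 UMIs (1.96% and 7.28%).

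Tbx3 was found in 36 thinned cells, 0.426% (0.299 to 0.589), and 31 cells, 0.303% (0.206 to 0.430), with unthinned shares of 1.03% and 0.775%. Tbx6 was found in 11 cells, 0.130% (0.065 to 0.233), and 5 cells, 0.0489% (0.0159 to 0.114), with unthinned shares of 0.241% and 0.217%. The intervals overlapped between libraries for each gene. A Tbx6-positive cell held 1 UMI after thinning.

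Background from free RNA was read in 2 places. The neural-like cluster, described below, should lack streak genes, and its median depth was 8587 and 7482 UMIs against 10571 and 8637 over all cells. It held T in 1.86% (0.606 to 4.28) and 4.14% (2.08 to 7.28) of thinned cells and Eomes in 1.49% (0.407 to 3.76) and 5.26% (2.91 to 8.67), all well under the shares over all cells. Tbx3 was in 3 of 269 neural-like cells, 1.12% (0.231 to 3.22), and in 0 of 266, which allows a share of up to 1.13%. Tbx6 was in 1 of 269 cells, 0.372% (0.00941 to 2.05), and in 0 of 266. The share of Tbx6 over all cells was at or under what so few neural-like cells allow. Any gene this rare would be, so these cells cannot tell Tbx6 from background. For Tbx3 the neural-like cells are no background reference. Their Tbx3 level of 2.75 CPM in the WT-labelled library was above the 1.20 CPM over all its cells, and Tbx3 is described by cluster below. In barcodes with at most 100 UMIs, which hold free RNA, T stood at 31.1 and 36.4 CPM and Eomes at 56.7 and 123 CPM. Tbx6 stood there at 1 and 0 UMIs in all, too few to set against its level in cells.

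T and Eomes were found in the same cells more often than the product of their shares. In the WT-labelled library 389 of 8449 thinned cells, 4.6% (4.17 to 5.07), held both, where the product of the 2 shares is 2.95%. In the dko-labelled library 941 of 10229 cells, 9.20% (8.65 to 9.78), held both, where the product is 7.06%. Observed overlap was 1.56 and 1.30 times the product. Of T-positive cells 39.1% (36 to 42.2) and 56.8% (54.4 to 59.2) held Eomes, against 23.2% (22.3 to 24.2) and 41.0% (40.0 to 42.1) of cells without T. Of Eomes-positive cells 18.3% (16.7 to 20.1) and 21.1% (19.9 to 22.3) held T, against 9.57% (8.86 to 10.3) and 12.4% (11.6 to 13.3) of cells without Eomes.

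The classes of cells by T and Eomes follow from both genes' shares. Cells with T and no Eomes made up 7.17% (6.63 to 7.74) in the WT-labelled library and 6.99% (6.50 to 7.50) in the other, with overlapping intervals. Cells without Eomes, among which these are counted, were 6329 of 8449 and 5769 of 10229, and within them the share with T was higher in the dko-labelled library, as given above. Those with Eomes and no T, 1731 and 3519 cells, made up 20.5% (19.6 to 21.4) and 34.4% (33.5 to 35.3). Cells with neither made up 67.7% (66.7 to 68.7) and 49.4% (48.4 to 50.4). Here a cell without a UMI at this depth may still have expressed the gene.

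**Figure D3:**
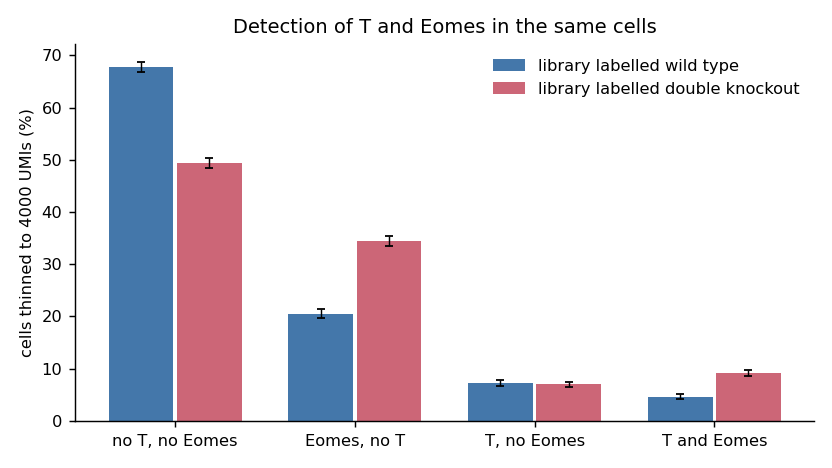
Share of cells (%) thinned to 4000 UMIs that held neither T nor Eomes, Eomes alone, T alone or both, in the WT-labelled library (blue) and the dko-labelled library (red), with Clopper-Pearson 95% intervals. T-alone shares overlap (7.17% and 6.99%), while cells with both make up 4.6% and 9.20%.

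The 2 genes were also graded against each other. As thinned Eomes UMIs went from 0 through 1, 2 and 3 to 4 or more, the share of cells with T went through 9.57%, 16.6%, 20.7% and 25.5% to 35.7% in the WT-labelled library, the last over 56 cells (23.4 to 49.6). The same steps gave 12.4%, 19.4%, 21.3%, 24.4% and 30.6% (25.1 to 36.6) in the dko-labelled library. At each Eomes step from 1 UMI up, the T intervals of the 2 libraries overlapped, and at 0 Eomes UMIs they did not. T was thus at 61.2 CPM (58.1 to 64.3) and 65.4 CPM (63.0 to 67.8) in cells with Eomes, a log2 ratio of 0.10 (0.01 to 0.19). In cells without Eomes it was at 31.0 CPM (29.8 to 32.4) and 39.4 CPM (37.7 to 41.1), a log2 ratio of 0.34 (0.26 to 0.43). Eomes differed between libraries in cells with T, at 148 and 263 CPM with a log2 ratio of 0.83 (0.75 to 0.92), and in cells without T, at 83.9 and 171 CPM with a log2 ratio of 1.03 (0.99 to 1.07).

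Overlaps with Tbx3 and Tbx6 rested on few cells. T and Tbx3 shared 2 and 5 cells, T and Tbx6 shared 3 and 2, Eomes and Tbx3 shared 6 and 9, and Eomes and Tbx6 shared 4 and 3. Tbx3 and Tbx6 shared 0 cells in both libraries, which allows shares of up to 0.0355% and 0.0293%. Foxa2, a gene of anterior streak and endoderm, was in 1.71% (0.998 to 2.72) and 4.05% (3.15 to 5.11) of T-positive cells, against 0.590% and 1.52% of cells without T. The caudal gene Cdx2 was in 6.33% (4.90 to 8.03) and 3.08% (2.30 to 4.03) of T-positive cells. Of the others 3.34% (2.94 to 3.77) and 2.41% (2.10 to 2.76) held it, and in the dko-labelled library the intervals overlapped. Foxa2 was also in 1.37% and 3.05% of Eomes-positive cells, against 0.506% and 1.06% of cells without Eomes. For Cdx2 these shares were 4.91% and 2.91%, against 3.29% and 2.22%. Foxa2 and Cdx2 are named here after their values were seen.

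Genes of lists drawn up around T and Eomes were compared between cells with both and cells with neither, using all UMIs of cells grouped by thinned UMIs. Median depths of these groups ran from 10492 to 11520 UMIs in the WT-labelled library and from 8504 to 9337 in the other. Cells with a low UMI share from chromosome 11 are described at the end. They made up 31.6% and 10.8% of cells with both, against 16.2% and 4.69% of cells with neither. The lists of upstream signals, streak partners, caudal partners and pluripotency genes, with Mga of the T-box family, gave 37 genes at 10 CPM or more. Of these, 11 were at least 25% higher in cells with both than with neither in both libraries and 6 were lower, where 0.96% and 1.58% of 7605 genes were. The lists were chosen with earlier results of these data known, so the shares over all genes give scale and are no test of the lists. The median log2 ratio of the 37 genes was 0.21 and 0.14, against 0.01 and 0.01 over all 7605.

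Signals of the streak were among the higher genes. Fgf8, a growth factor that streak cells need to migrate, went from 64.0 CPM (62.0 to 65.9) with neither to 209 CPM (196 to 223) with both in the WT-labelled library. In the other library it went from 105 CPM (102 to 108) to 251 CPM (241 to 261). Tdgf1, the Nodal co-receptor also called Cripto, went from 21.1 to 61.4 CPM and from 35.8 to 72.4 CPM. Wnt3, the ligand that starts the streak, went from 38.8 to 64.6 CPM and from 48.3 to 76.4 CPM. The other 10 upstream signals did not pass the fold upward in both libraries, and Smad3, a Nodal signal transducer, was lower, at 11 against 6.14 CPM and 11.6 against 7.79 CPM.

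Of 8 streak partners, Mixl1, Gsc, Evx1 and Otx2 were higher and none was lower. Mixl1, a homeobox gene of streak mesendoderm, stood at 5.67 CPM (5.1 to 6.29) with neither and 58.9 CPM (52.2 to 66.2) with both in the WT-labelled library. In the other library it stood at 7.53 CPM (6.76 to 8.37) and 40.8 CPM (36.8 to 45.1). Gsc, a gene of the anterior streak and organizer, stood at 7.32 and 26.3 CPM and at 14.1 and 46.5 CPM. Cells with both genes thus had more Mixl1 in the WT-labelled library and more Gsc in the other, with intervals apart in each case (for Gsc 21.8 to 31.3 and 42.2 to 51.1). The share of such cells low on chromosome 11 also differed between libraries, as given above.

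Of 10 pluripotency and epiblast genes, 5 were lower in cells with both and 2 were higher. Sox2, a pluripotency and neural factor, stood at 39.4 and 14.6 CPM and at 31.9 and 14.3 CPM in cells with neither and with both. Klf2, a naive pluripotency factor, stood at 40.1 and 10.4 CPM and at 25.8 and 6.92 CPM. Sox3, Pou3f1 and Utf1 were the others lower. Nanog, a pluripotency factor that streak cells keep, and Fgf5, a growth factor of the primed epiblast, were higher, with Nanog at 103 and 147 CPM and at 112 and 152 CPM. Of 5 caudal partners, Dll3 and Sp5 were higher and none was lower in both libraries. Sp5 went from 99.3 to 176 CPM in the WT-labelled library and from 443 to 599 CPM in the other.

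**Figure D4:**
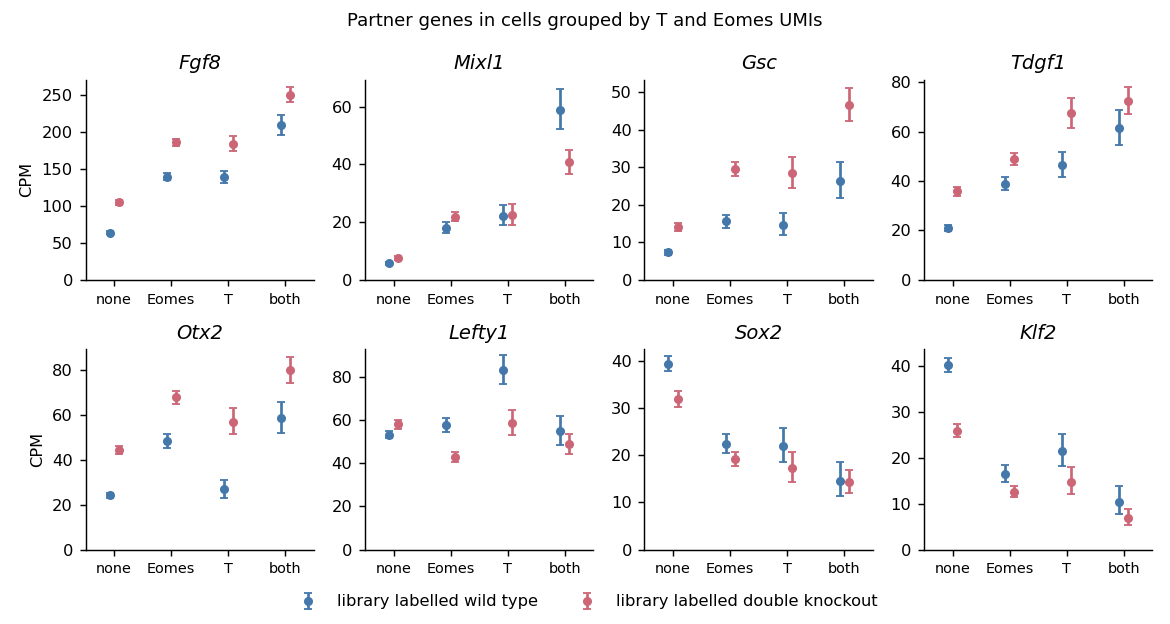
Level (CPM) of 8 partner genes in cells with neither T nor Eomes, Eomes alone, T alone or both, in the WT-labelled library (blue) and the dko-labelled library (red), with exact Poisson 95% intervals. Fgf8, Mixl1, Gsc and Tdgf1 are highest in cells with both, Sox2 and Klf2 are lowest there, and Lefty1 is higher with T alone (83.1 and 58.6 CPM) than with Eomes alone (57.7 and 42.7 CPM).

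Cells with T alone and cells with Eomes alone were close in most of these genes. These classes were cut from thinned UMIs and are mixed. By all UMIs, cells with T alone held Eomes at 63.2 and 110 CPM, against 37.3 and 61.7 CPM with neither. Cells with Eomes alone held T at 31.9 and 29.8 CPM, against 16.8 and 18.5 CPM with neither. Their closeness is thus not read as likeness of cells that express only T or only Eomes. Of the 37 genes, 2 were at least 25% higher with T alone in both libraries, where 0.0657% of 7605 genes were, and 0 were lower, where 0.0789% were. The 2 genes were Lefty1 and Lefty2, both inhibitors of Nodal. Lefty1 stood at 83.1 CPM (76.5 to 90.0) with T alone and 57.7 CPM (54.5 to 61.1) with Eomes alone in the WT-labelled library, and at 58.6 CPM (53.1 to 64.6) and 42.7 CPM (40.5 to 44.9) in the other. Lefty2 stood at 20.3 and 14.4 CPM and at 22.4 and 16.7 CPM. With neither gene, Lefty1 was at 53.2 CPM (51.4 to 55.0) and 57.9 CPM (55.7 to 60.1). In the dko-labelled library it was thus lower with Eomes alone and not clearly higher with T alone. Cells with a low UMI share from chromosome 11, described at the end, made up 29.2% and 7.83% of cells with T alone. With Eomes alone they made up 16.3% and 5.80%. Otx2, an anterior epiblast gene, was at 26.9 CPM (23.2 to 30.9) with T alone against 48.4 CPM (45.4 to 51.4) with Eomes alone in the WT-labelled library. In the dko-labelled library the values were 57.0 CPM (51.5 to 62.9) and 67.8 CPM (65.1 to 70.6).

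Between libraries the same lists give the setting of the T and Eomes ratios. Of 13 upstream signals at 10 CPM or more, Tdgf1, Wnt3 and Fgf8 were at least 25% higher in the dko-labelled library and 0 were lower. Their median log2 ratio was 0.04. Of 8 streak partners at 10 CPM or more, Mixl1, Gsc, Lefty2 and Otx2 were higher and 0 lower, with a median of 0.14. Rarer genes of the lists, named after their values were seen, went both ways. Mesp1, at 1.35 and 0.369 CPM, was lower, a fold of 0.28 (0.18 to 0.40). Fgf4, Fgf17, Lhx1, Snai1, Dll1, Cdx2 and Ripply2 were also lower beyond counting error, while Foxa2, Hes7, Dppa3 and, barely, Foxh1 were higher. Nodal, the ligand upstream of Eomes, was at 26.7 and 26.5 CPM, a log2 ratio of -0.01 (-0.09 to 0.07). Of 5 caudal partners at 10 CPM or more, Sp5 and Sp8 alone were higher. Msgn1, a Tbx6 partner in paraxial mesoderm named after its value was seen, had 0 UMIs in both libraries. Of 10 pluripotency genes, Fgf5 and Utf1 were higher and Sox2, Klf2 and Sox3 lower. The background shares for the counts at 10 CPM or more are the 1.42% and 2.02% given above, and they too give scale only. For the rarer genes, named by their intervals, no share over all genes was taken. Of 13 other T-box genes, Mga alone reached 10 CPM, at 95.4 and 83.7 CPM with a log2 ratio of -0.19 (-0.23 to -0.15). Among the rarer ones, Tbx4 was lower beyond counting error, with 127 and 81 UMIs and a log2 ratio of -0.65 (-1.08 to -0.24). So was Tbr1, with 34 and 17 UMIs and a log2 ratio of -0.99 (-1.94 to -0.13). Intervals of the rest held 0.

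Across cells, Fgf8 was the gene whose level went most closely with T and with Eomes. The measure was Pearson's r of log counts per 10000 UMIs over the 8707 and 10587 cells, the lower of the 2 libraries being used. All cells of a library share its depth range and free RNA. For T the 5 closest genes were Fgf8 (0.25 and 0.25), Eomes (0.26 and 0.24), Mixl1 (0.23 and 0.20), Fst (0.23 and 0.18) and Trh (0.17 and 0.15). For Eomes they were Fgf8 (0.34 and 0.32), Fst (0.26 and 0.27), Dnmt3b (0.26 and 0.25), Fgf5 (0.31 and 0.25) and T. For Tbx3 only Fabp3 reached 0.10 in both libraries (0.21 and 0.12), and for Tbx6 no gene did. All of these are weak, as sparse counts give.

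Joint clustering placed the genes among cell groups. The 4 genes, Sp5 and Sp8 were left out of the genes used to cluster. Of 9 clusters, 4 could be named from markers: cluster 1 as primitive-streak-like (led by Mixl1, Gsc and S-phase genes such as Cdc6), cluster 4 as naive-pluripotent-like (Dppa3, Zfp42), cluster 6 as neural-like (Sox1) and cluster 8 as extraembryonic-endoderm-like (Dab2, Sparc). Cluster 0 was led by Top2a and Trh, cluster 2 by Irx3 and Gbx2, cluster 3 by Cdx2 and Pkdcc, cluster 5 by no marker at median depths of 3676 and 3226 UMIs, and cluster 7 by the stress genes Ddit3 and Pmaip1. The name of cluster 1 rests on 5 of 10 streak markers that passed the fold used for naming. They were Mixl1, Gsc, Mesp1, Lhx1 and Eomes itself, while T, Fgf8, Wnt3, Evx1 and Nodal did not pass. Eomes was also among the genes that led cluster 1, so its level there is no support for the name. The name of cluster 4 rests on 6 of 8 naive markers that passed that fold, Tbx3 itself among them. Its profile was mixed, since 3 of 6 primed-epiblast markers (Otx2, Pou3f1 and Utf1) passed that fold too. So did the streak genes Fgf8 and Nodal, although none of these genes led the cluster. Sizes of clusters are not compared between libraries.

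T was highest in cluster 3, at 73.8 and 117 CPM, then in cluster 0, at 45.1 and 60.0 CPM, and cluster 1, at 39.6 and 50.8 CPM. Lower levels were found in cluster 4 (24.0 and 36.2 CPM), cluster 5 (15.4 and 28.6 CPM), cluster 2 (13.8 and 17.8 CPM) and the neural-like cluster 6 (6.68 and 12.6 CPM). Intervals of the neighbours 4 and 5, and of 5 and 2, overlapped in both libraries, and those of 2 and 6 in the dko-labelled library. In the WT-labelled library cluster 0 held 40.9% of T UMIs, cluster 3 held 29.4% in 16.8% of the cells and cluster 1 held 17.9%. In the dko-labelled library cluster 0 held 53.5%, cluster 1 held 27.3% and cluster 3 held 9.73% in 4.81% of the cells. The order for Eomes differed by library. In the WT-labelled library it was highest in clusters 1 and 0, at 130 and 120 CPM, with cluster 3 at 99.9 CPM, and in the other library it was highest in cluster 3, at 270 CPM, with 231 CPM in cluster 1 and 206 CPM in cluster 0. Cluster 2, led by Irx3, stood at 33.1 and 85.8 CPM.

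The library ratio of T was above 0 in all 7 clusters that reached 100 cells per library, from 0.36 (0.22 to 0.49) in cluster 1 to 0.90 (-0.01 to 1.89) in the neural-like cluster, whose interval alone held 0. That of Eomes ran from 0.59 (0.35 to 0.84) in the naive-pluripotent-like cluster to 1.97 (1.09 to 3.03) in the neural-like cluster. In the latter Eomes was low, at 5.11 and 20.6 CPM, and that cluster served above as a reference for background. Eomes stood at 56.7 and 123 CPM in barcodes of at most 100 UMIs. The part of free RNA in the ratio of the neural-like cluster was not tested. Among the other clusters that reached 100 cells per library, Eomes differed most in cluster 3, with 1.44 (1.32 to 1.55), and cluster 2, with 1.37 (1.24 to 1.5).

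Tbx3 reached its highest levels in 2 small clusters, although cluster 0, with 6553 cells, held the most UMIs of any, 52 of 212 (24.5%). The 37 cells of the extraembryonic-endoderm-like cluster, 0.192% of all cells, held 43 of the UMIs (20.3%), at 152 CPM (102 to 219) in 16 cells of the WT-labelled library and 64.8 CPM (35.4 to 109) in 21 cells of the other. Its log2 ratio there, -1.21 (-2.27 to -0.27), was below 0 beyond counting error but rests on 29 and 14 UMIs. Tbx3 was in 24 of those 37 cells before thinning. Cluster 7, led by Ddit3, held 9 and 21 Tbx3 UMIs in 36 and 81 cells, at 32.4 and 36.3 CPM, which is 7.69% and 22.1% of the gene's UMIs in each library. The naive-pluripotent-like cluster held 22 UMIs, at 4.49 and 1.78 CPM. Outside clusters 7 and 8, a split chosen after seeing the data, Tbx3 was at 0.817 and 0.620 CPM with a log2 ratio of -0.40 (-0.91 to 0.10). The 45 UMIs of Tbx6 lay in 44 cells spread over 7 clusters, 21 of them in cluster 0.

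Cells with a low share of UMIs from chromosome 11 moved with the level of T. Among cells with at least 4000 UMIs, 17.8% (17 to 18.7) in the WT-labelled library and 5.86% (5.41 to 6.33) in the other had at most 0.8 times the median share from chromosome 11. For chromosome 6 these were 21.2% (20.4 to 22.1) and 18.2% (17.5 to 19). No gene of the 4 lies on either chromosome. Cluster 3, where T was highest, consisted of such cells at 94.6% and 94.9% for chromosome 11. T was at 71.1 and 107 CPM in cells low on chromosome 11 and at 33.2 and 48.1 CPM in the others. Cells low on chromosome 11 made up 30.2% (27.3 to 33.1) of T-positive and 16.2% (15.4 to 17) of T-negative cells in the WT-labelled library, and 9.54% (8.17 to 11.1) and 5.14% (4.69 to 5.63) in the other.

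In cells low on neither chromosome the T difference between libraries was larger than over all cells. Among those 6339 and 8014 cells T was at 31.7 and 49.1 CPM with a log2 ratio of 0.63 (0.56 to 0.70), and was in 9.50% (8.79 to 10.2) and 15.8% (15.0 to 16.6) of thinned cells. Splits by each chromosome were chosen after seeing the data. In all cells low on chromosome 6, 1794 and 1866 cells, the direction of T was the opposite, at 62.3 CPM (58.8 to 66.0) and 51.8 CPM (48.4 to 55.3) with a log2 ratio of -0.27 (-0.40 to -0.14). Of those cells in the WT-labelled library 1191 were also low on chromosome 11, against 250 in the other. The T ratio was 0.72 (0.50 to 0.93) in cells low on both chromosomes and 0.48 (0.23 to 0.74) in those low on 11 alone. Cells low on chromosome 6 alone, 603 and 1616 cells, had T at 48.5 and 43.2 CPM, a log2 ratio of -0.17 (-0.36 to 0.03). Eomes was at 90.6 and 183 CPM in cells low on neither, with a log2 ratio of 1.02 (0.98 to 1.06), the same as over all cells. It stayed above 0 in each of the 4 groups, from 0.91 (0.79 to 1.03) in cells low on chromosome 6 alone to 1.59 (1.43 to 1.74) in cells low on both. Cells with both T and Eomes made up 3.63% (3.18 to 4.12) and 8.93% (8.32 to 9.58) of cells low on neither. The part of the low-share cells in the T difference over all cells was not tested beyond these values.

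**Figure D5:**
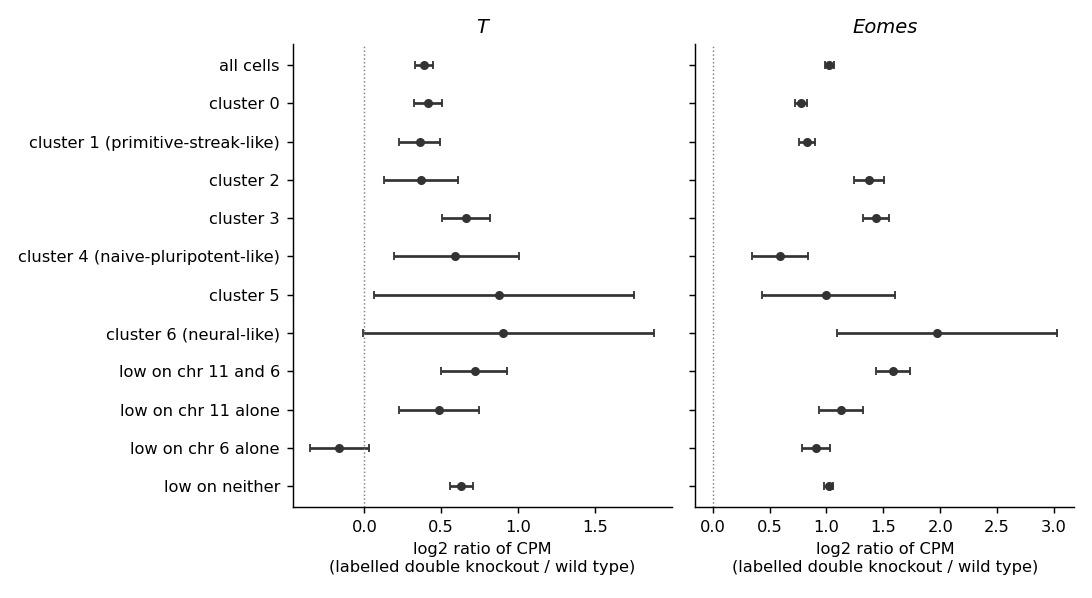
Log2 ratio of CPM, dko-labelled library over WT-labelled library, of T (left) and Eomes (right) in all cells, in 7 clusters and in 4 groups of cells by low UMI share from chromosomes 11 and 6, with exact conditional 95% intervals. Dotted lines mark 0. The T ratio is 0.63 in cells low on neither chromosome and -0.17 in cells low on chromosome 6 alone, and each Eomes ratio lies above 0.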

How the data were processed

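Single-cell transcripts were counted in 2 libraries, 1 per genotype. Per the labels' protocols, 10x 3′ libraries (chemistry 3.1) were processed with Cell Ranger 8.0.1. The submitters' processing notes also list STARsolo, STAR 2.7.9a, Seurat 5.1.0 and the build mm10, without roles. The authors deposited raw UMI counts for 32285 genes and all 6794880 barcodes, so cells were called here. Doublets were kept, and the top doublet scores (606 and 897 cells) were removed as an alternative. UMIs of all cells in a library were added up and divided by their total to give CPM, with a pseudocount of 0.5 in log2 ratios. With 1 library per group no test was made. Clustering used 2000 variable genes, 30 principal components, 15 neighbours and a Leiden resolution of 0.5 (scanpy 1.11.5 and leidenalg 0.10.2). A cluster was named where 1 or more markers of a class led it (top 10 genes by fold) and at least 3 were 1.5-fold higher than elsewhere. Edges of the cell graph were weighted by shared neighbours. edgeR 4.0.16 gave TMM factors. Named genes are the 4 genes, Sp5, Sp8, 13 other T-box genes, list genes with a mean of 10 CPM or more, and the 5 genes most like each of the 4 with r of at least 0.10. Ratios were tested on simulated data, and thinning on the cells of the WT-labelled library against the shares expected from their counts. The genes and lists were chosen with earlier results of these data known. UMI intervals cover counting error only. Depth ran from 2501 to 40074 UMIs per cell.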

Additional observations from a re-analysis of the deposited data

Results flagged for a closer look

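Transcripts of these genes also appeared in barcodes that were not taken as cells, which lie outside the main measurement and served above as a background for free RNA. Barcodes with at most 100 UMIs, 885099 in the WT-labelled library and 892271 in the other, held 5269228 and 3709403 UMIs. In the WT-labelled library T stood there at 31.1 CPM (26.5 to 36.3), and in the dko-labelled library at 36.4 CPM (30.5 to 43.1). Eomes stood at 56.7 CPM (50.5 to 63.6) and 123 CPM (112 to 135). Tbx3 had 2 UMIs in the former and 8 UMIs in the latter, where its level was 2.16 CPM (0.931 to 4.25). Each of these except the 2 UMIs lies above the 3 UMIs that a count of 0 allows.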

How the results depend on the processing

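Of 175 values recomputed under other settings, 96 stayed within counting error, 77 moved and 2 changed direction. Both of the last were T, with a log2 ratio of -0.27 in cells low on chromosome 6 and -0.17 in those low on it alone, and the cause was not tested. These splits were chosen after seeing the data, as were cells low on chromosome 11, on both and on 11 alone, with 0.60, 0.72 and 0.48 for T. Eomes gave 1.40, 1.59 and 1.13 there and 0.91 in cells low on 6 alone, and it kept its direction in each setting. Ratios of Tbx3 and Tbx6, whose intervals hold 0, took either sign. The log2 ratio of T was 0.63 in cells low on neither chromosome 6 nor 11, and 0.66, 0.59, 0.87 and 0.90 in clusters 3, 4, 5 and 6. With each cluster given its mean UMI share as the same weight in both libraries, it was 0.46. That of Eomes was 0.92 with these shared weights and 0.78, 0.83, 1.37, 1.44, 0.59 and 1.97 in clusters 0, 1, 2, 3, 4 and 6. That of Tbx3 was 1.15, -0.77, -1.28 and -0.85 in clusters 2, 3, 4 and 6. Shares move with depth by construction. Thinned to 2500 UMIs, T was in 7.81% and 10.1% of cells of the WT-labelled and dko-labelled libraries, Eomes in 17% and 31.7%, and both in 2.30% and 4.25%. At 8000 UMIs T was in 22.2% and 29.5%, Eomes in 39.2% and 63.1%, both in 12.3% and 22.0%, Tbx3 in 0.734% and 0.520%, and Tbx6 in 0.205% of the latter. Without thinning T was in 26.0% and 29.3%, Eomes in 43.4% and 61.8%, Tbx3 in 1.03% and 0.775%, and Tbx6 in 0.241% and 0.217%. At 2 UMIs or more T was in 2.09% and 3.04%, Eomes in 6.94% and 18.1%, both in 0.320% and 0.948%, Tbx3 in 0.0118% and 0.00978%, and Tbx6 in 0 and 0 cells. In cells of the WT-labelled library low on neither chromosome, T was in 9.50% and both in 3.63%. With genes of at least 1 CPM, 390 genes were at least 25% higher (108 at 10 CPM), 607 at least 20% lower (154), and 64 and 109 past 1.5-fold (22 and 18). TMM scaling moved the median log2 ratio of all genes from -0.02 to 0.01. Those of Tbx3 in clusters 3 and 6 rest on 15 and 2 and on 7 and 3 UMIs, with intervals from -4.22 to 1.06 and from -3.55 to 1.16. Cluster ratios are left out here where a library had 0 UMIs or neither had more than 3. No paired analysis was possible because each group has 1 library. At these depths a difference in Tbx6 of under about 2-fold was not detectable, and a cell with 0 UMIs may express a gene.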
